A study of Mus musculus with 6 samples.

Results

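The J-domain proteins, the Hsp90 proteins, the small heat shock proteins and their partners were followed through an array comparison of wild type and mutant RPS19 erythroblasts. Members were all probe sets whose single annotated symbol begins with Dnaj, Hsp90 or Hspb, or with Bag and a digit, or is Hsf1, Hsf2, Ahsa1, Stip1, Cdc37, Ptges3, St13, Stub1 or Chordc1. The rule found 110 of the 22626 tested probe sets, for 60 of 12393 genes, and 31 of these genes were read by several probe sets. It used gene names and no measured value. Hsf1, Ptges3 and Hsp90ab1 were not analysed here as members, and 4 probe sets that carry the symbol of a pseudogene beside Dnajc19 or Ptges3 fell outside the rule. The prefixes also took in a pair of genes with other roles, Hspb11, which encodes the intraflagellar transport protein Ift25, and Hspbp1, a nucleotide exchange factor of Hsp70.

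The 6 samples were CD71-positive erythroblasts, nucleated red cell precursors, sorted from the bone marrow of FVB/N mice and read on 1 Affymetrix array each. The 3 wild type samples came from wild type mice and the 3 mutant samples from mice expressing a transgene for RPS19 with the change R62W, named in the title for Diamond-Blackfan anaemia. The sources used here do not state the transgene's promoter, the age of the mice or whether each sample was a different animal. The p-values therefore reflect the spread among these arrays alone, and that spread could be technical. Values are on the log2 scale, so that a difference of 1 is a doubling.

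J-domain proteins bind Hsp70 chaperones and speed up their ATP hydrolysis, which locks Hsp70 onto an unfolded client. Hsp90 takes over clients from Hsp70 with the help of co-chaperones, small heat shock proteins hold unfolding proteins in a soluble state, and Bag proteins release clients by exchanging the nucleotide of Hsp70. In erythroid cells Hsp70 shields the transcription factor GATA1 from caspase cleavage, and Hsp90 with Cdc37 matures the haem-regulated kinase that slows translation when haem is scarce. Many of these genes are induced through heat shock elements, inverted repeats of the letters GAA that are bound by heat shock factors.

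Array facts bear on every value below. The SD of the difference between 2 arrays over the members was 0.155 to 0.190 within wild type, 0.276 to 0.404 within the mutant group and 0.291 to 0.375 between the groups. Over all tested probe sets these SDs were 0.143 to 0.186, 0.345 to 0.503 and 0.382 to 0.429 in the same order. The mutant group had the larger SD for 83 of 110 members (75.5%), against 76.7% of all tested probe sets. Spiked polyadenylated controls read 4.07 and hybridisation controls 1.11 higher on the mutant arrays, and the 3' minus 5' values of the actin and Gapdh controls were 0.39 and 0.34 higher there (exact permutation p = 0.1 for each, two-sided, the smallest that 3 arrays against 3 allow). The 3' minus 5' value of the Tfrc controls differed by 0.034 (exact permutation p = 0.8). The level of Tfrc itself was lower on every mutant array on its brightest probe set. It read 12.147, 12.143 and 12.125 in wild type and 11.447, 11.992 and 11.961 in the mutant group (-0.34, exact permutation p = 0.1). Xist and Eif2s3y set 1 array apart: mutant replicate 3 read 5.78 for Xist and 8.34 for the Y-linked Eif2s3y, against 11.4 to 12.1 and 2.23 to 2.45 on the other 5 arrays. The mean of 10 measured erythroid markers of 14 listed was 9.71 to 9.76 on wild type arrays and 9.12, 9.81 and 9.90 on mutant arrays 1, 2 and 3. Of the 15 probe sets of these markers, 12 had a lower mutant mean (median -0.21), and 2 were called lower and 0 higher. The mean of 9 neutrophil markers of 10 listed, all above the array median, was 10.8 to 11.0 in wild type and 11.6, 10.3 and 9.82 on the mutant arrays, that of 4 eosinophil and mast cell markers 7.36 to 7.54 and 8.95, 7.26 and 6.04, and that of 9 of 10 B cell markers, 2 of them below the array median, 6.09 to 6.15 and 6.16, 8.07 and 7.00. The 8 macrophage markers averaged 6.35 to 6.50 in wild type and 5.79 to 6.31 in the mutant group, the 3 of 4 T cell markers, all below the array median, 4.46 to 4.58 and 4.19 to 4.22, and the 5 megakaryocyte markers 5.62 to 5.68 and 6.05 to 6.73, with 1 probe set called higher. In the other lists 0 probe sets were called by limma, with 6 of 13 B cell and 3 of 3 T cell probe sets at an unadjusted p below 0.05, higher and lower respectively, 1 of 14 macrophage probe sets lower, and 0 of the neutrophil, eosinophil and mast cell ones. The part of other cell types, of sex (as read by Xist and Eif2s3y), of RNA quality and of the spikes in the member values was not tested. In sorted bulk samples fewer cells of a type and less RNA per cell cannot be told apart.

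The promoter windows of the members were searched for heat shock element letters, since heat shock factors act on many of these genes. RefSeq windows (GRCm38.p6, 250 bases before to 50 after a start) were matched for 49 of the 60 genes. Without an entry were Bag4, Dnajc2, Dnajc5, Dnajc5b, Dnajc11, Dnajc12, Dnajc18, Dnajc30, Hsp90aa1, Hspb2 and St13. The motif of 3 units, GAANNTTCNNGAA on either strand, stood in the windows of Chordc1 and Dnajb6, 2 of the 49 genes (4.08%), and in 0.603% of all 32851 windows, or the windows of 0.662% of 27025 genes. The shorter motif of 2 units, GAANNTTC or TTCNNGAA, each its own reverse complement and contained in the longer one, stood in those of 13 member genes (26.5%) and in 15.1% of all windows, or those of 17% of genes. A match describes letters in a window and is no evidence of binding. The stretches below, chosen after the values were seen, belong to Dnajb6 and Dnajc10, which held the called probe sets, to Chordc1 and Dnaja1, whose probe sets did not overlap between the groups, and to Hspb1, the classic small heat shock gene. Capitals mark the bases that match the 2-unit motif, written 5′ to 3′ on the gene's strand. The stretches are chr5:29735818-29735897, chr9:18292207-18292290, chr2:80315256-80315335, chr4:40722308-40722387 and chr5:135887789-135887868, all on the plus strand, in the order printed.
Dnajb6: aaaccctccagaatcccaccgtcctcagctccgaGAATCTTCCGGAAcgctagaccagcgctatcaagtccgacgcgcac
Chordc1: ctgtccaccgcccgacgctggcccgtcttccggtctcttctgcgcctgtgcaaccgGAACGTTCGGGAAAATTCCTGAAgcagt
Dnajc10: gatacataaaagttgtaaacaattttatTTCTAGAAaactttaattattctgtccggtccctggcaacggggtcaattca
Dnaja1: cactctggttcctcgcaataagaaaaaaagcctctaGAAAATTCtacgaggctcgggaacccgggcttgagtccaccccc
Hspb1: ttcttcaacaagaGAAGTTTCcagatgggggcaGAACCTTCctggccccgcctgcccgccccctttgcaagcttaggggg

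The Dnajb6 element begins 46 bases before the start that follows the stretch printed, and 127 bases before another annotated start of the gene. The Chordc1 run crosses its start, from 4 bases before it to 19 bases past it. In Dnajc10 the 2-unit match begins 182 bases before the start, in Dnaja1 124 bases before it, and in Hspb1 a pair of matches begins 117 and 97 bases before it.

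Over the whole family, 2 of 110 probe sets passed the test, both lower in the mutant, at an adjusted p under 0.05 (limma with Benjamini-Hochberg adjustment over all 22626 probe sets). That is 1.82% of the members, where 2.33% of all tested probe sets were called in either direction and 1.39% were called lower. The groups did not overlap for 31 members (28.2%, against 26.1% of all probe sets), 21 lower in the mutant (19.1% against 14.7%) and 10 higher (9.09% against 11.4%). Of the members, 20 lower and 7 higher had an unadjusted p under 0.05 (18.2% and 6.36%, against 10.5% and 8.64% of all probe sets). The median difference, mutant minus wild type, was -0.03 over the members and -0.01 over all probe sets, and 63 members had the lower mean in the mutant, where 52.5% of all probe sets did. The shares called and not overlapping thus lay near those of the array as a whole. The share lower at an unadjusted p under 0.05 was larger among the members (18.2% against 10.5%), a difference that was not tested.

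**Figure D1:**
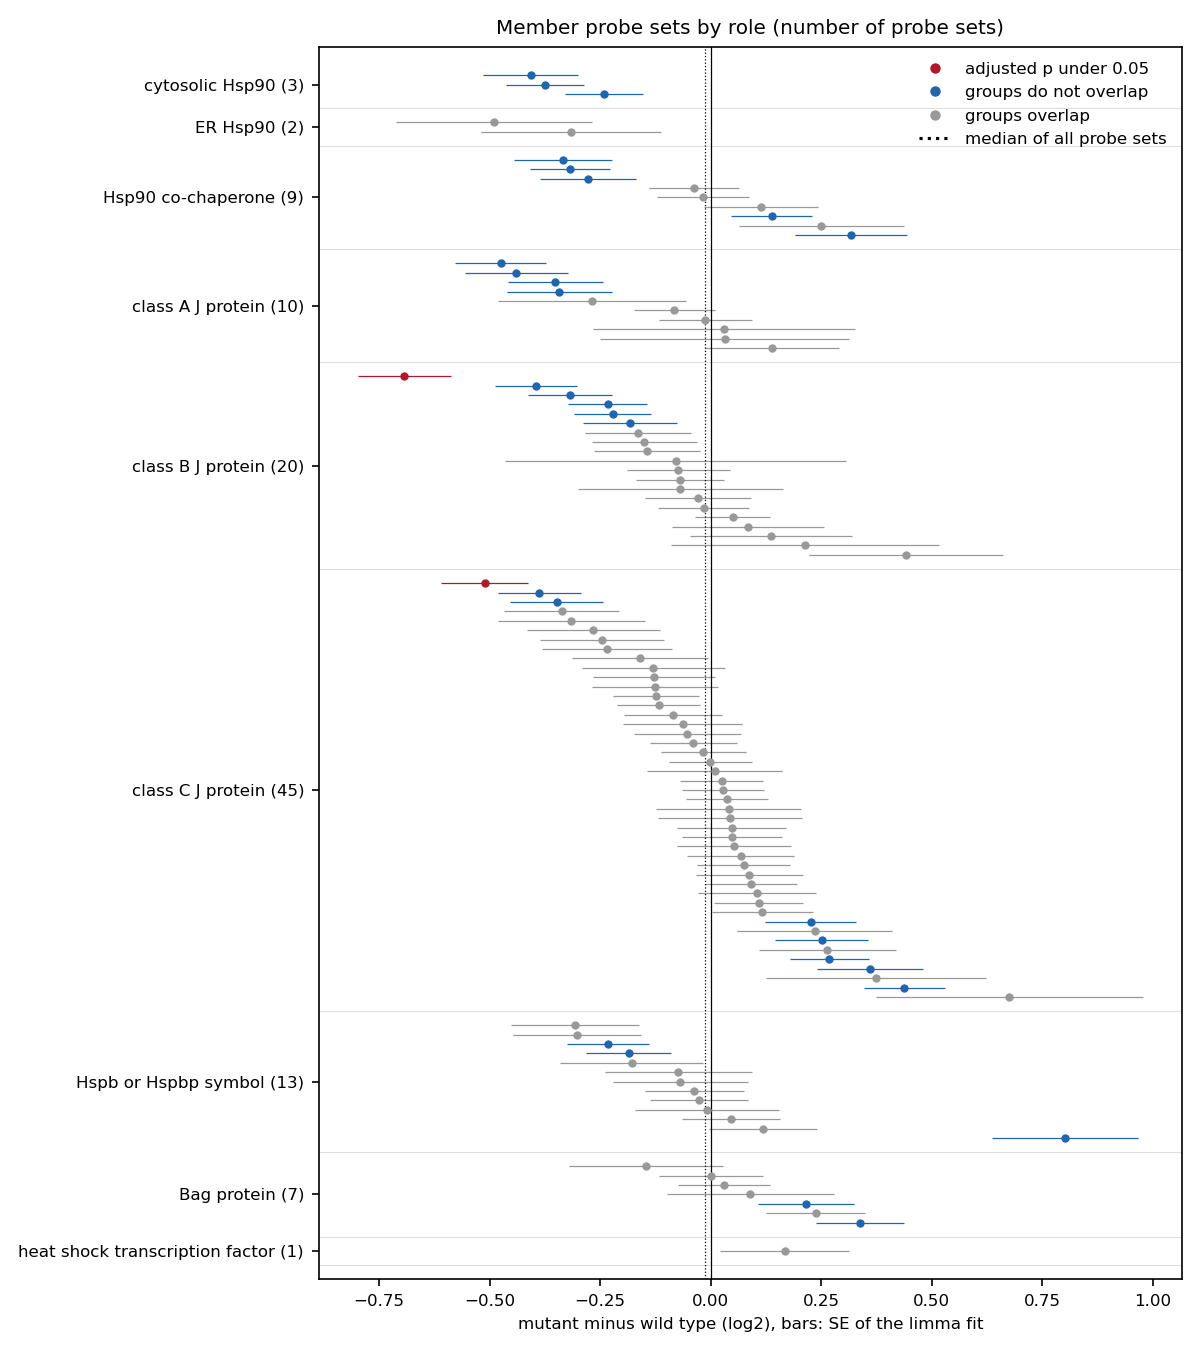
Difference between mutant and wild type arrays for each of the 110 member probe sets, by role. Points give the log2 difference and bars its SE from the limma fit (3 arrays a group). All 3 probe sets of cytosolic Hsp90 and both of the endoplasmic reticulum Hsp90 lie to the left of 0, whereas the class C J proteins spread from -0.51 to 0.68 around it.

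Cytosolic Hsp90 was represented by Hsp90aa1, the stress-inducible isoform, and all 3 of its probe sets read lower on every mutant array than on any wild type array. The brightest, 1426645_at, read 12.32, 12.31 and 12.25 on the wild type arrays and 11.95, 11.85 and 11.96 on the mutant arrays. Both groups were tight and the gap between them was 0.29. The difference was -0.37 ± 0.09 (log2, SE), or 1.30-fold, and did not pass the test (adjusted p = 0.077). Probe set 1438902_a_at read 12.16, 12.20 and 12.41 against 11.92, 11.75 and 11.89, a difference of -0.41 ± 0.11 (adjusted p = 0.099). Probe set 1437497_a_at read 11.49, 11.56 and 11.48 against 11.23, 11.26 and 11.33, a difference of -0.24 ± 0.09 (adjusted p = 0.20). Hsp90aa1, Dnajc10 and Dnaja1 were the 3 genes among the 31 with several probe sets for which every probe set separated the groups downwards, and 0 did so upwards. That is 9.68% and 0% of the 31 genes, against 2.54% and 2.28% of all 4956 genes read by several probe sets. The size for Hsp90aa1 depended on the scaling: with quantile normalisation repeated without the controls the differences were -0.24, -0.30 and -0.14 in the same order. Under the other alternatives 1426645_at stayed between -0.41 and -0.34. It was called without mutant replicate 1 (-0.39, adjusted p = 0.039) and with array weights (adjusted p = 0.019). It was also called with a trended prior (adjusted p = 0.035). Of all probe sets, 11.2% were called without mutant replicate 1 and 11.8% with array weights, against 2.33% in the reported fit.

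The endoplasmic reticulum Hsp90, Hsp90b1 (Grp94), behaved differently from array to array. Probe set 1415889_a_at read 10.45, 10.51 and 10.73 in wild type and 10.57, 10.38 and 9.78 on mutant arrays 1, 2 and 3, so that the groups overlapped. Probe set 1438040_a_at read 9.48, 9.40 and 9.57 against 9.43, 9.06 and 8.48. The differences were -0.32 ± 0.20 (adjusted p = 0.46) and -0.49 ± 0.22 (adjusted p = 0.28), with mutant array 3 the lowest and mutant array 1 within the wild type range for both. Without mutant replicate 1 the second probe set differed by -0.71 and was called (adjusted p = 0.039), and without mutant replicate 3 the differences were -0.08 and -0.24.

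The Hsp90 co-chaperones did not move as 1 group, as 5 of 9 probe sets had a lower mutant mean and limma called 0 of them (3 lower and 1 higher had an unadjusted p under 0.05). Stip1 (Hop), which bridges Hsp70 and Hsp90, read 9.03, 8.96 and 8.88 in wild type and 8.61, 8.64 and 8.66 in the mutant group, a difference of -0.32 ± 0.09 (adjusted p = 0.12). Chordc1, a zinc-binding partner of Hsp90, read 9.78, 9.75 and 9.74 against 9.33, 9.62 and 9.31, a difference of -0.33 ± 0.11 (adjusted p = 0.17). Cdc37, which brings kinases to Hsp90, read 10.05, 10.05 and 9.88 against 9.77, 9.57 and 9.80 on its brighter probe set, a difference of -0.28 ± 0.11 (adjusted p = 0.22). For these 3 genes the groups did not overlap on the probe sets named, while the dimmer Cdc37 probe set overlapped, with a difference of 0.11 ± 0.13.

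Ahsa1, the activator of the Hsp90 ATPase, read 9.65, 9.58 and 9.46 against 9.41, 9.60 and 9.62. It differed by -0.02 ± 0.10 (95% confidence interval -0.26 to 0.23) and took the other sign with another scaling (0.02). St13 (Hip), which stabilises the client-bound form of Hsp70, read 8.42, 8.30 and 8.31 against 8.45, 8.23 and 8.24 on its brighter probe set (-0.04 ± 0.10), and differed by 0.14 ± 0.09, without overlap, on its dimmer one. Stub1 (CHIP), the ubiquitin ligase that marks chaperone clients for the proteasome, read 9.31, 9.30 and 9.19 in wild type and 9.08, 9.82 and 9.65 in the mutant group. Its mutant array 1 lay below all wild type arrays and the other mutant arrays above them (0.25 ± 0.19, adjusted p = 0.53), and without mutant replicate 1 the difference was 0.47 and was called (adjusted p = 0.028). Its second probe set read 7.85, 7.79 and 7.67 against 7.86, 8.24 and 8.17 (0.32 ± 0.13, adjusted p = 0.23). The groups all but touched there, with a gap of 0.00097. Among the mutant arrays, array 1 was also the lowest for the means of the erythroid (9.12) and B cell markers (6.16, beside 6.09 to 6.15 in wild type). That array was the highest of them for the neutrophil (11.6), eosinophil and mast cell (8.95), macrophage (6.31) and megakaryocyte markers (6.73). A link to Stub1 was not tested.

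**Figure D2:**
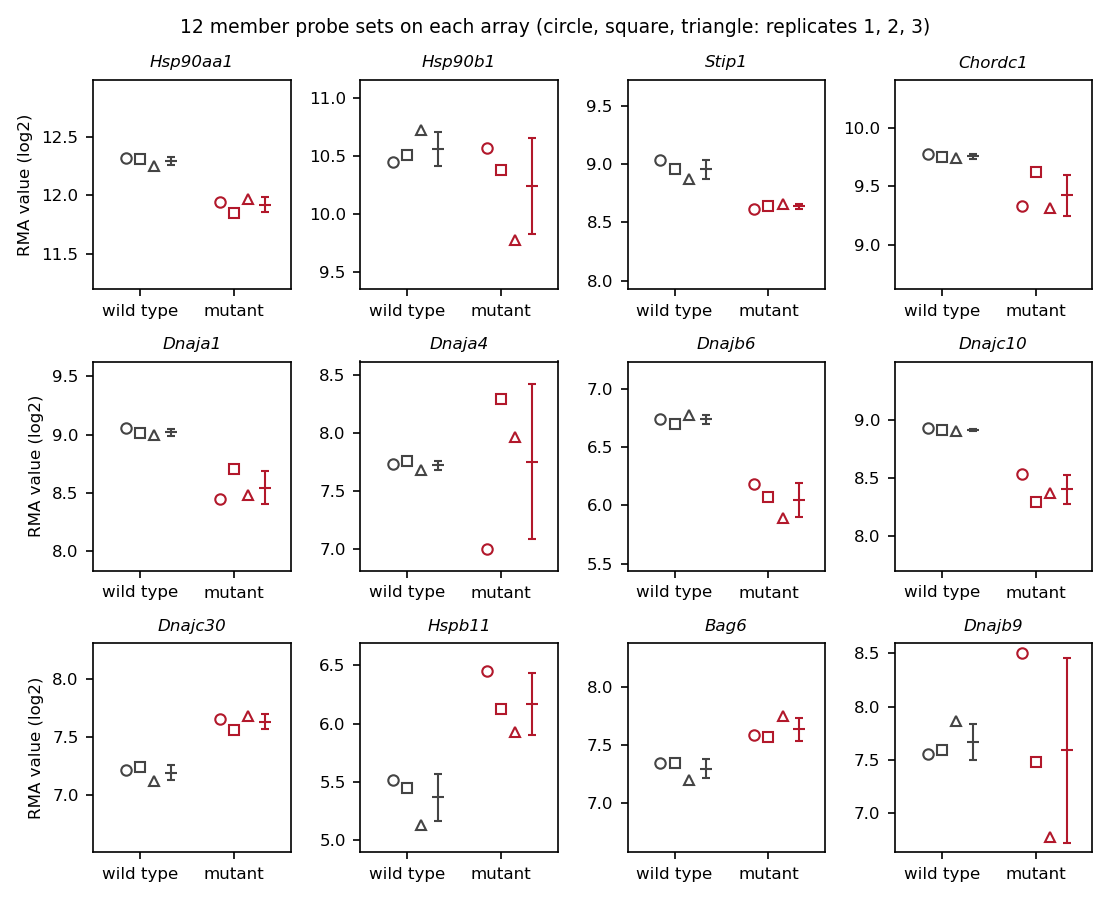
RMA values (log2) of 12 member probe sets on the 3 wild type and 3 mutant arrays. Symbols are single arrays and the bars beside them the mean and SD of a group. The probe set shown is the brightest of its gene, except for Dnajb6 (1429776_a_at) and Dnaja1 (1460179_at). Those shown for Hsp90aa1, Dnajb6 and Dnajc10 separate the groups, whereas the brightest of Dnajb6 (1448234_at, not shown) overlaps. Those for Dnaja4 and Dnajb9 are widely spread among the mutant arrays, with mutant array 1 at opposite ends.

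Class A J proteins carry the J domain, a glycine and phenylalanine-rich stretch and a zinc-finger region, and 7 of their 10 probe sets had a lower mutant mean (median -0.18), of which limma called 0 (4 lower had an unadjusted p under 0.05). Dnaja1, a main partner of cytosolic Hsp70, read 10.75, 10.72 and 10.70 in wild type and 10.35, 10.54 and 10.23 in the mutant group on its brighter probe set, a difference of -0.35 ± 0.11 (adjusted p = 0.14). On 1460179_at it read 9.05, 9.01 and 8.99 against 8.45, 8.70 and 8.48, a difference of -0.48 ± 0.10 (adjusted p = 0.064). Both probe sets separated the groups, with mutant array 2 the nearest to wild type. Dnaja3 (Tid1), the J protein of the mitochondrial matrix, gave unlike readings. Its probe set 1420629_a_at read 6.82, 6.71 and 6.68 against 6.20, 6.19 and 6.50 (-0.44 ± 0.12, adjusted p = 0.0996), whereas the brightest, 1449935_a_at, read 8.16, 8.17 and 8.09 against 8.07, 8.02 and 8.29 (-0.01 ± 0.11). The dimmest, at 3.07 in wild type, also separated the groups (-0.34 ± 0.12, adjusted p = 0.18). Dnaja2, another cytosolic partner of Hsp70, differed by -0.08 ± 0.09 and 0.14 ± 0.15 on its probe sets.

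Dnaja4, chosen after its values were seen, had one of the widest spreads among the mutant arrays. Probe set 1418591_at read 7.73, 7.76 and 7.68 in wild type and 7.00, 8.29 and 7.97 on mutant arrays 1, 2 and 3 (0.03 ± 0.30, and -0.0030 with repeated quantile normalisation). Without mutant replicate 1 that difference was 0.41 (adjusted p = 0.069). Its other probe sets differed by 0.03 ± 0.28 and -0.27 ± 0.21, or by 0.38 and -0.01 without mutant replicate 1. On each of its 3 probe sets mutant array 1 was the lowest of the 6 arrays, by at least 0.51. Of the mutant arrays the same one was also the lowest for the means of the erythroid (9.12) and B cell markers (6.16, beside 6.09 to 6.15 in wild type). For the neutrophil, eosinophil and mast cell, macrophage and megakaryocyte markers that array was the highest of the mutant arrays. A link to Dnaja4 was not tested.

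Class B J proteins lack the zinc finger, and 15 of their 20 probe sets had a lower mutant mean (median -0.08), with 1 called lower and 0 higher, and 5 lower below an unadjusted p of 0.05. Dnajb6, which keeps aggregation-prone proteins soluble, held the called probe set, 1429776_a_at. It read 6.74, 6.70 and 6.78 in wild type and 6.18, 6.07 and 5.89 in the mutant group. All mutant arrays lay at least 0.52 below all wild type arrays. The fall was -0.69 ± 0.11 (95% confidence interval -0.94 to -0.45), or 1.62-fold (adjusted p = 0.026). The other Dnajb6 probe sets did not show a fall of that size. The brightest, 1448234_at, read 9.95, 9.93 and 9.87 against 9.92, 9.98 and 9.63 (-0.07 ± 0.12), and 1434035_at read 6.98, 6.99 and 6.92 against 6.68, 6.81 and 6.70 (-0.23 ± 0.09, adjusted p = 0.22). The dimmest, 1429777_at, read 5.39, 5.44 and 5.28 against 4.84, 6.18 and 5.72 (0.21 ± 0.30), and without mutant replicate 1 it was called in the other direction (0.58, adjusted p = 0.045). The sources used here do not state which Dnajb6 transcripts each probe set reads. On the mean of the 4 probe sets the gene differed by -0.20 (adjusted p = 0.43). The probe sets of non-member genes most like 1429776_a_at over the 6 arrays were those of Actb (1436722_a_at, Pearson r = 0.998), Gnb1 (1417432_a_at, 0.997) and Prps2 (1420637_at, 0.997), values that rest on the gap between the groups and are given as a description.

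**Figure D3:**
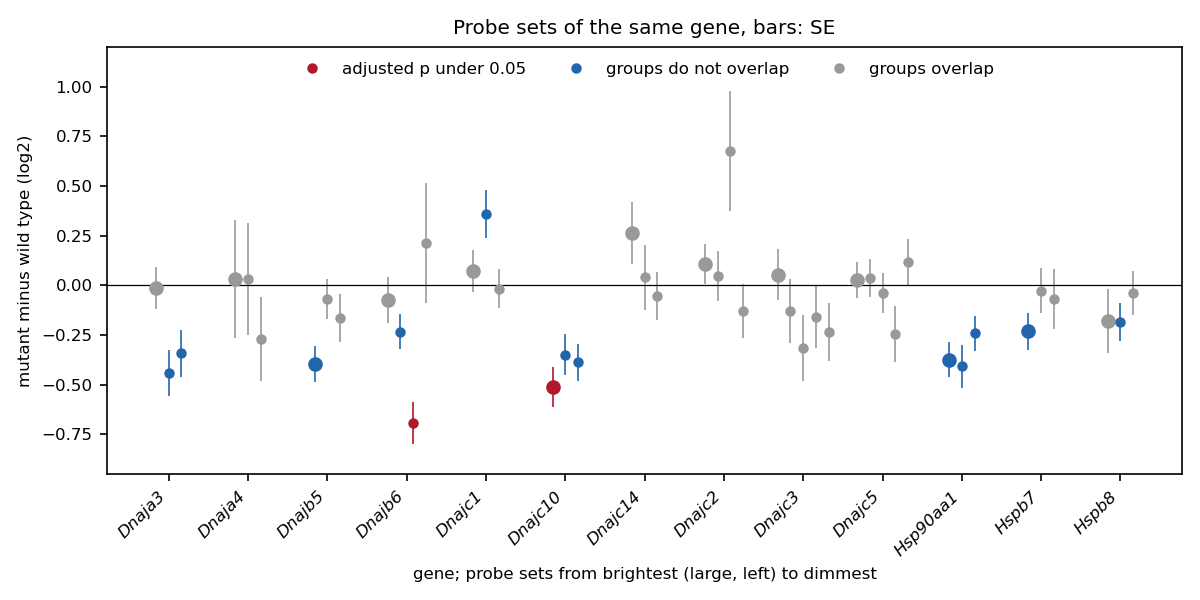
Log2 differences (mutant minus wild type, bars SE) of the probe sets of the 13 member genes read by 3 or more probe sets, from the brightest to the dimmest within each gene. The probe sets of Hsp90aa1 and Dnajc10 lie together below 0, whereas those of Dnajb6 run from -0.69 to 0.21.

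The fall on 1429776_a_at was called without mutant replicate 1 (-0.76, adjusted p = 0.0061) and without mutant replicate 3 (-0.62, adjusted p = 0.031), and not without mutant replicate 2 (-0.70, adjusted p = 0.075) or without any 1 wild type array (-0.71 to -0.67, adjusted p = 0.14 to 0.16). It did not pass with the replicate number as a block (adjusted p = 0.081) or without limma's shared variance (adjusted p = 0.084).

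Among the other class B members, Dnajb1, the main heat-induced J protein, read 10.15, 10.08 and 10.00 in wild type and 9.84, 10.20 and 10.10 in the mutant group on its brighter probe set (-0.03 ± 0.12). On the dimmer one it read 9.57, 9.58 and 9.50 against 9.14, 9.33 and 9.22 (-0.32 ± 0.09, adjusted p = 0.13), without overlap. Only the dimmer probe set of Dnajb1 thus separated the groups. Dnajb5 separated them on its brightest probe set, at 5.66, 5.81 and 5.80 against 5.32, 5.37 and 5.39 (-0.40 ± 0.09, adjusted p = 0.075), while its others, at 3.41 and 4.01 in wild type, overlapped. Dnajb4 differed by -0.18 ± 0.11 on a probe set without overlap and by -0.15 ± 0.12 on one with overlap. Dnajb2, a J protein with ubiquitin-binding motifs, read 7.59, 7.45 and 7.35 against 7.41, 8.33 and 7.98 (0.44 ± 0.22, adjusted p = 0.33). Its mutant array 1 stood within the wild type range and the other mutant arrays above it, and without mutant replicate 1 it was called at 0.69 (adjusted p = 0.021). The remaining class B genes overlapped except Dnajb8 (4.67 in wild type and 4.45 in the mutant group, adjusted p = 0.22). Dnajb3, Dnajb7, Dnajb8 and Dnajb13, known mainly from testis, had wild type means of 3.17 to 4.67, below the 5.37 that was the median over all tested probe sets.

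J proteins of class C share only the J domain and hold the specialised members. Of their 45 probe sets for 22 genes, 20 had a lower and 25 a higher mutant mean (median 0.03), limma called 1 lower and 0 higher, and 4 lower and 4 higher had an unadjusted p under 0.05. Dnajc10 (ERdj5), a disulfide reductase that unlinks misfolded proteins in the endoplasmic reticulum before their export, held the called probe set, 1426905_a_at. It read 8.92, 8.91 and 8.90 in wild type and 8.54, 8.29 and 8.37 in the mutant group. The wild type arrays agreed within 0.021 and every mutant array lay at least 0.37 below them. The fall was -0.51 ± 0.10 (95% confidence interval -0.74 to -0.28), or 1.43-fold (adjusted p = 0.048). Its other probe sets read 8.49, 8.46 and 8.38 against 8.25, 8.06 and 7.98 (1426904_s_at, -0.35 ± 0.10, adjusted p = 0.13) and 7.96, 8.05 and 7.84 against 7.59, 7.55 and 7.56 (1452230_at, -0.39 ± 0.09, adjusted p = 0.082). All 3 therefore separated the groups in 1 direction, and without mutant replicate 1 all 3 were called (adjusted p = 0.011 to 0.044). The call on 1426905_a_at was lost without mutant replicate 2 (-0.46, adjusted p = 0.12), without mutant replicate 3 (-0.50, adjusted p = 0.063) and without any 1 wild type array (-0.52 to -0.51, adjusted p = 0.19 to 0.24). It was also lost with the replicate number as a block (adjusted p = 0.12), without limma's shared variance (adjusted p = 0.095), on 1 probe set or the mean per gene (adjusted p = 0.076 and 0.089), with repeated quantile normalisation (adjusted p = 0.0502) and with median centring (adjusted p = 0.055).

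Of the other J proteins of the endoplasmic reticulum, Dnajb9, Dnajc3, Dnajb11 and Dnajc1, limma called 0 probe sets (1, of Dnajc1, had an unadjusted p under 0.05), and their difference from Dnajc10 was not tested. Dnajb9 (ERdj4), a sensor-binding J protein induced by unfolded proteins, read 7.55, 7.59 and 7.86 in wild type and 8.51, 7.48 and 6.78 on mutant arrays 1, 2 and 3. It had the largest mutant SD of all members (0.87), and the mutant arrays lay on both sides of wild type. Dnajc3 (p58IPK), an inhibitor of eIF2 alpha kinases, read 8.09, 8.10 and 8.03 against 8.37, 8.10 and 7.92 on its brightest probe set, with differences from -0.32 to 0.05 over its 5 probe sets. For Dnajb9 and both probe sets of Hsp90b1, mutant array 1 was the highest and mutant array 3 the lowest of the mutant arrays. The same held for 4 of the 5 probe sets of Dnajc3. That order also held for the neutrophil markers (11.6 and 9.82) and the eosinophil and mast cell markers (8.95 and 6.04). The macrophage (6.31 and 5.79) and megakaryocyte markers (6.73 and 6.05) shared it as well, while the erythroid, B cell and T cell markers did not. A link was not tested. Dnajb11 (ERdj3), by contrast, read 8.16 to 8.24 in wild type and 8.24 to 8.27 in the mutant group (0.05 ± 0.09). Dnajc1, which binds ribosomes at the membrane of the endoplasmic reticulum, read 6.45, 6.42 and 6.43 against 6.93, 6.89 and 6.56 on 1420500_at (0.36 ± 0.12, adjusted p = 0.17), and 0.07 ± 0.11 higher on a probe set with overlap.

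Of the 4 probe sets of Dnajc30, Dnajc15 and Dnajc11, mitochondrial members of class C, limma called 0 (3 had an unadjusted p under 0.05). Dnajc30, which supports respiratory complex I and ATP synthesis, read 7.21, 7.25 and 7.12 in wild type and 7.66, 7.56 and 7.69 in the mutant group. Its groups did not overlap, and the difference of 0.44 ± 0.09, or 1.35-fold, did not pass the test (adjusted p = 0.059). Without mutant replicate 1 it was called (0.43, adjusted p = 0.034). Dnajc15 of the inner membrane read 7.99, 8.03 and 7.94 against 8.31, 8.19 and 8.27 (0.27 ± 0.09, adjusted p = 0.16), also without overlap. Dnajc11, of the cristae-organising complex, differed by -0.0008 ± 0.09 on its brighter and -0.34 ± 0.13 on its dimmer probe set. The brighter probe set shared by Dnajc19, of the mitochondrial import motor, and its pseudogene read 8.57, 8.59 and 8.57 against 7.99, 8.04 and 8.39 (-0.44 ± 0.12, adjusted p = 0.12), and cannot be given to 1 gene. A dimmer one of the same pair overlapped (-0.09 ± 0.10).

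Members linked to ribosomes, RNA and chromatin follow, of which limma called 0 (1 probe set, of Dnajc17, had an unadjusted p under 0.05). Dnajc21, a factor in maturation of the large ribosomal subunit that is mutated in an inherited bone marrow failure, read 7.14, 7.04 and 6.93 in wild type and 7.03, 7.13 and 7.23 in the mutant group (0.09 ± 0.10, 95% confidence interval -0.15 to 0.33). Dnajc2, which sits at the exit of the ribosomal tunnel with Hspa14, read 8.64, 8.61 and 8.59 against 8.85, 8.59 and 8.72 on its brightest probe set (0.11 ± 0.10) and differed by 0.05 ± 0.12 on the next. Its probe set 1454219_at read 4.54, 3.97 and 4.22 against 5.62, 4.43 and 4.70 (0.68 ± 0.30, adjusted p = 0.28), with mutant array 1 the highest. Dnajc9, a histone chaperone, read 10.46, 10.47 and 10.33 against 9.99, 10.48 and 10.41 (-0.13 ± 0.14). Dnajc8, of the spliceosome, differed by -0.08 ± 0.11. The splicing-linked Dnajc17 differed by 0.25 ± 0.11 (adjusted p = 0.25, without overlap, by a gap of 0.008) and 0.09 ± 0.12. Dnajc24, needed to make diphthamide on elongation factor 2, differed by 0.05 ± 0.11 and 0.02 ± 0.09.

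The vesicle-linked members Dnajc5, a vesicle chaperone with 5 probe sets, and Dnajc13, of endosomes, all overlapped between the groups, with differences from -0.25 to 0.12. Dnajc7, which binds both Hsp70 and Hsp90, read 9.43, 9.38 and 9.29 in wild type and 9.38, 10.01 and 9.41 in the mutant group, so that mutant array 2 stood apart. Dnajc12, a co-chaperone of aromatic amino acid hydroxylases, read 6.64, 6.55 and 6.56 against 7.59, 6.62 and 6.66, so that mutant array 1 stood apart. Dnajc27 separated the groups on its brighter probe set (0.23 ± 0.10, adjusted p = 0.29) and overlapped on the other. All probe sets of Dnajc4, Dnajc5b, Dnajc14, Dnajc18 and Dnajc28 overlapped between the groups.

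Small heat shock proteins gave dim readings. The 10 probe sets of Hspb1, Hspb2, Hspb3, Hspb7 and Hspb8 had wild type means of 3.11 to 5.32, below the median of all tested probe sets, where RMA values compress differences. Of these, 9 had a lower mutant mean (median -0.13), and limma called 0 (1 had an unadjusted p under 0.05). Hspb1 (Hsp27), whose promoter stretch is printed above, read 5.11, 5.39 and 5.48 in wild type and 4.83, 5.01 and 5.22 in the mutant group (-0.31 ± 0.14, adjusted p = 0.30), and its other probe set differed by -0.30 ± 0.15. Hspb8, which works with Bag3 in clearing misfolded proteins by autophagy, read 4.36, 4.96 and 4.74 against 4.54, 4.62 and 4.37 on its brightest probe set (-0.18 ± 0.16). Another Hspb8 probe set, 1417013_at, separated the groups (-0.19 ± 0.10, adjusted p = 0.35), and the dimmest overlapped (-0.04 ± 0.11). The lowest p of these genes was that of Hspb7, at 3.68, 3.83 and 3.78 against 3.52, 3.60 and 3.48 (-0.23 ± 0.09, adjusted p = 0.23).

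Hspb11, in the family by symbol alone, had the largest difference of all members. Its probe set 1453016_at read 5.51, 5.45 and 5.13 in wild type and 6.45, 6.12 and 5.92 in the mutant group, without overlap. The difference of 0.80 ± 0.17, or 1.74-fold, just missed the threshold (adjusted p = 0.056), and passed with array weights (0.69, adjusted p = 0.014), in the brighter part of the probe sets (adjusted p = 0.046), with repeated quantile normalisation (0.78, adjusted p = 0.049), without mutant replicate 1 (0.66, adjusted p = 0.028) and without mutant replicate 3 (0.92, adjusted p = 0.037). Its other probe set averaged 2.37 in wild type and 2.41 in the mutant group. Hspbp1 differed by -0.01 ± 0.16.

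**Figure D4:**
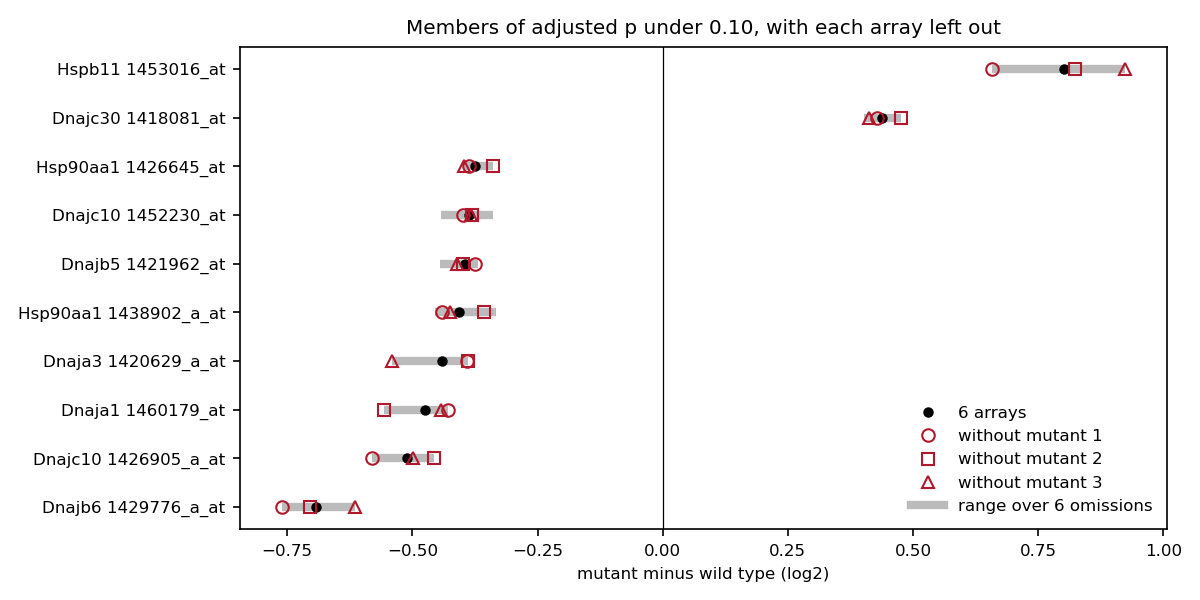
Log2 differences of the 10 member probe sets with an adjusted p under 0.10, on all 6 arrays and with each array left out. Black dots give the difference over 6 arrays, red symbols that without a mutant array and grey bars the range over the 6 omissions. The groups did not overlap for any of the 10, which fixes the sign under omission, and the bar of Hspb11 is the widest, from 0.66 to 0.92.

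Bag proteins had higher mutant means on 6 of 7 probe sets (median 0.09), and limma called 0 (1 had an unadjusted p under 0.05). Bag6, which guards newly made membrane proteins on their way to insertion, read 7.34, 7.35 and 7.20 in wild type and 7.59, 7.57 and 7.75 in the mutant group (0.34 ± 0.10, adjusted p = 0.13). Bag1, an exchange factor that links Hsp70 to the proteasome, read 9.62, 9.60 and 9.59 against 9.70, 9.76 and 10.01 (0.22 ± 0.11, adjusted p = 0.34). Neither overlapped between the groups. Bag4 read 6.80, 6.57 and 6.49 against 6.94, 6.79 and 6.84 on its brighter probe set (0.24 ± 0.11, adjusted p = 0.30). Bag3, a heat shock-induced member, read 6.02, 6.09 and 5.91 against 6.11, 6.10 and 5.90 (0.03 ± 0.10, and -0.0033 with repeated quantile normalisation). Bag5 differed by 0.0015 ± 0.12 and Bag2 by -0.15 ± 0.17. The heat shock factor Hsf2, the only one that the rule took in, read 2.55, 2.44 and 2.41 against 2.94, 2.53 and 2.43, near the bottom of the scale (0.17 ± 0.15).

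Genes that work with these members were read from 4 further lists. Of 32 probe sets of the Hsp70 family and its exchange factors (16 genes), 6 were called lower and 0 higher (median -0.15), beside the 1.39% and 0.941% of all probe sets called in those directions. Their lowest p was that of Hspa1b, an inducible Hsp70, on 1427127_x_at, at 10.20, 10.22 and 10.52 in wild type and 9.16, 9.41 and 9.46 in the mutant group (-0.97 ± 0.13, adjusted p = 0.020). The signals of Hspa1b and of its near-identical copy Hspa1a may not be separable by such probe sets. Hspa4, an exchange factor of Hsp70, fell from 8.18 ± 0.08 to 7.54 ± 0.06 (SD, n = 3 each, limma adjusted p = 0.025) on 1435194_at. Of 35 probe sets of other Hsp90 partners limma called 0 (3 lower and 5 higher had an unadjusted p under 0.05, median -0.04), with Tomm34, an import co-chaperone, at 0.51 ± 0.11 (adjusted p = 0.068) and Ruvbl2, an ATPase that Hsp90 helps assemble, at -0.54 ± 0.15 (adjusted p = 0.12).

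J-domain proteins with other symbols, 7 probe sets of 3 genes, gave 0 calls in limma (0 lower and 2 higher had an unadjusted p under 0.05, median 0.16). Those 2 were probe sets of Sec63, the J protein of the translocon, at 0.34 ± 0.12 and 0.39 ± 0.14 (adjusted p = 0.18 and 0.21). Of 11 probe sets of chaperonin and other heat shock-inducible genes 1 was called lower and 0 higher (median -0.22). It was Hspe1, the mitochondrial chaperonin lid, at 9.04, 9.01 and 8.87 against 8.22, 8.26 and 8.56 (-0.63 ± 0.12, adjusted p = 0.048), and its partner Hspd1 differed by -0.51 ± 0.11 (adjusted p = 0.058).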

How the data were processed

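RNA was labelled with biotin and hybridised to 1 Affymetrix array per sample, per the labels' protocols. GCOS, Affymetrix Expression Console and RMA are named in the submitters' processing notes. RMA corrects background, quantile normalises and summarises probes. The values deposited by the authors are log2 and were used as given. Versions of these tools and a genome build are not stated in the sources used here. The number of arrays limits the precision.

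From the 22690 probe sets 64 controls were left out, and names came from the 2016 platform annotation. Entrez identifiers of all 110 members matched a GRCm38.p6 gene table, which changed 0 symbols. A model without covariates was fitted over 22626 probe sets, with the two-sided moderated test of limma (version 3.58.1, R version 4.3.3). Errors are SE from the fit or SD of 3 arrays. The fit was tested on simulated data with the same SD in both groups. On the real arrays the mutant SD was mostly larger, which the simulation did not cover. Single control values had exact permutation tests. Tables and figures were made in Python 3.11.15.

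Members and lists were chosen with earlier results of these data known. Members named were those called, 20 measured genes of 23 fixed ones and the 3 lowest p in each role, with the 2 lowest p of each further list. Other members were chosen after their values were seen. Alternatives covered the variance prior, array weights, normalisation, dim probe sets, the replicate block, 1 value per gene, the threshold and leaving out each array.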

Additional observations from a re-analysis of the deposited data

Results flagged for a closer look

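Spiked polyadenylated controls, bacterial transcripts that are no part of the comparison, read 4.07 higher on the mutant than on the wild type arrays (log2). This is a signal in data outside the main measurement. They read 8.74 to 8.77 on the wild type arrays and 11.6, 13.4 and 13.5 on the mutant arrays. Their part in the member values was not tested.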

How the results depend on the processing

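The median over the members ran from -0.059 to -0.014 over the alternatives, against -0.033 as reported. The count of called members was 2 in the reported fit, 3 with a trended prior, 2 with repeated quantile normalisation, 2 among probe sets with a mean of at least 4, 1 with median centring, 5 among probe sets at or above the median brightness, 15 with array weights and 10 at an adjusted p under 0.10. It was 0 with limma's shared variance left out (26 at an unadjusted p under 0.05), 0 with the replicate block (22), 0 of 60 genes on the brightest probe set per gene (15) and 0 of 60 on the mean of all probe sets (13). For all probe sets the count of 528 became 81 without shared variance, 2667 with array weights, 112 with the replicate block, 41 and 47 of 12393 genes on the brightest and mean probe set, and 1386 at an adjusted p under 0.10. It was 582 with a trended prior, 550 with repeated quantile normalisation and 505 with median centring. With a mean of at least 4 it was 592 of 15318 (3.86%, against 2.22% of members). In the brighter part it was 600 of 11313 (5.30%, against 6.85% of members). The shares of all probe sets and of members were 11.8% and 13.6% with array weights. At an adjusted p under 0.10 they were 6.13% and 9.09%. Leaving out 1 array gave 0 to 15 called members and 36 to 2544 called probe sets. The 15 came without mutant replicate 1 (13.6% of members, against 11.2% of all probe sets). Without mutant replicate 3 there were 4 (3.64% against 3.65%). The count was 0 without mutant replicate 2 (22 at an unadjusted p under 0.05) or wild type replicate 1, 2 or 3 (21, 18 and 19). The cause was not tested, beyond the smaller number of features tested and the looser threshold. Same-numbered arrays deviated together only weakly (r = 0.051, 0.028 and 0.055 over probe sets), so the numbers were not taken as pairs, although each array correlated best with its own number.

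Of the probe sets named as called, as fixed genes or for the lowest p in a role, 6 with differences near 0 changed sign. Ahsa1 read 0.0037 with array weights, 0.0229 with repeated quantile normalisation and -0.0665 to 0.0496 over the omissions. Dnajb1 (1416755_at) read 0.0424, 0.0252 and -0.105 to 0.0744 in the same order. Bag3 read -0.0033 with repeated quantile normalisation and -0.0172 to 0.0967 over the omissions. St13 read 0.0502 on the mean of its probe sets and -0.109 to 0.00181 over the omissions. Over the omissions Dnajb6 (1448234_at) ran from -0.143 to 0.0341 and Dnajc9 from -0.217 to 0.0254. None of these 6 was called in any setting. Other members described above also changed sign over the omissions. Among them were Dnajb9 (-0.540 to 0.327), Dnaja4 on 1418591_at (-0.237 to 0.405) and Dnajb6 on 1429777_at (-0.087 to 0.583). The last was called without mutant replicate 1 (limma adjusted p = 0.045).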
